A study of Mus musculus with 14 samples.

Results

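DAMGO was compared with the control that the labels call NC in mouse neural stem cells (NSC) at 3 stages, undifferentiated, day 4 and day 8 of differentiation, with day 2 left out. The comparison holds 6 of the 14 libraries of the series, 3 treated with DAMGO and 3 NC, and they were chosen by treatment and stage alone. All 6 came from NSC of the OG2 strain at passage 8, a strain that carries a reporter driven by Pou5f1 regulatory sequence. The DAMGO libraries are undifferentiated, day 4 and day 8 cells cultured with DAMGO, and the NC libraries are the same stages labelled NC in place of a drug. A naloxone library exists at each stage and is used here only for values set beside those of DAMGO and NC. Each condition has 1 library, so the 3 libraries of a treatment differ in stage as well. The stage was a block in the fit. The p-values set the mean DAMGO to NC difference over these 3 pairs against a spread largely borrowed across genes. They reflect only in part how evenly a gene repeated over the pairs, and hold no spread between repeated cultures of a condition. The sources used here do not give the dose, the exposure time, the content of NC or whether libraries came from separate cultures.

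DAMGO is a synthetic enkephalin analogue that selectively activates the mu opioid receptor, and naloxone is an antagonist of opioid receptors. The mu receptor couples to inhibitory G proteins, which lower adenylyl cyclase activity and thereby cAMP, protein kinase A and the transcription factor CREB, and it can also feed into ERK signalling. In NSC the readouts of such a receptor would be immediate early genes, CREB and ERK target genes, and genes of proliferation and lineage choice. The question put by the series is how opioid drugs act on NSC while they proliferate and while they differentiate.

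The DAMGO libraries held 5659380, 4143030 and 6202066 expected counts (undifferentiated, day 4 and day 8), and the NC libraries held 4913497, 5771564 and 5729020. Levels are given as CPM, which sets each count relative to the TMM-scaled size of its library, and in that order of stages within each treatment. A floor of 3 counts equals 0.501 to 0.696 CPM in 1 library, and all floors and counting intervals cover counting error only. Stage markers followed the labelled stages in both treatments. Nes, an intermediate filament of progenitors, stood at 1891, 194 and 265 CPM with DAMGO and at 1773, 181 and 223 CPM with NC. Gfap, the filament of astrocytes, stood at 2.28, 552 and 8807 CPM with DAMGO and at 4.04, 464 and 8271 CPM with NC. The proliferation marker Mki67 stood at 1298, 5.34 and 0.854 CPM with DAMGO and at 1359, 10.4 and 1.47 CPM with NC. Defining microglial markers were nearly absent, with 0 counts of Aif1, Cx3cr1, Trem2, C1qa and C1qb in the 6 libraries, and the 12 microglial markers together summed to 0.696 to 2.28 CPM per library with DAMGO and 2.34 to 4.24 CPM with NC. The 10 endothelial markers summed to 5.79 to 23.1 CPM with DAMGO and 4.85 to 18.2 CPM with NC, mostly from Kdr and Vwf, with Cdh5, Tie1 and Cldn5 at 0 counts. The 10 pluripotency markers summed to 3.71 to 19.3 CPM with DAMGO and 2.34 to 14.8 CPM with NC, from Esrrb, Klf4 and Nanog above all, with Pou5f1, Zfp42, Dppa3, Utf1, Lin28a and Dppa5a at 0 counts.

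Outside day 2 the DAMGO and NC libraries were close to each other in almost every gene. Of 12387 genes tested, 2 (0.0161%) passed the threshold of edgeR's quasi-likelihood test, an adjusted p under 0.05 after Benjamini-Hochberg adjustment over all genes. Both were lower with DAMGO, and 0 were higher. They were Lars2, the mitochondrial leucyl-tRNA synthetase, and Gm42418, a noncoding transcript related to ribosomal RNA, which has a predicted name and is named here after its values were seen. At an unadjusted p under 0.05 there were 393 genes (3.17%), of which 174 were higher (1.4%) and 219 lower (1.77%), against 619 expected if no gene differed. The median difference over all genes was -0.00309 on the log2 scale, and the quartiles were -0.0691 and 0.06. Without the undifferentiated, day 4 or day 8 pair the count was 20, 6 or 17, and Lars2 and Gm42418 were among the genes in each case. DESeq2 called 1 gene, Lars2, and limma on log2(TPM + 1) called 1 other gene and neither of them.

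Most fitted differences between these libraries had narrow intervals. At a mean of at least 20 CPM there were 8315 genes, and for 8304 of them (99.9%) the 95% interval of the difference lay within 1.5-fold in either direction. Over all 12387 genes the interval lay within 1.5-fold for 10414 (84.1%) and within 2-fold for 11791 (95.2%). These intervals use the spread of the 6 libraries, with 2 residual degrees of freedom and a prior of 27 borrowed across genes. With 1 library per condition they hold no spread between repeated cultures, so they describe these libraries and do not bound an effect of DAMGO.

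Lars2 (chr9:123366927-123462666, plus strand, mm10) loads leucine onto the tRNA of mitochondria. It stood at 93.9, 57.6 and 79.1 CPM with DAMGO and at 197, 81.7 and 144 CPM with NC. Its DAMGO library was the lower one at each of the 3 stages, although the ranges of the treatments overlap across stages, because undifferentiated DAMGO cells stood above day 4 NC cells. The fitted difference was -0.85 ± 0.08 on the log2 scale (SE, 3 pairs, edgeR adjusted p = 5.35e-08), a level of 0.553 times that of NC with a 95% interval from 0.497 to 0.616. By stage the differences were -1.07, -0.50 and -0.86. The undifferentiated and day 4 values lie outside the 95% interval of the fit, -1.01 to -0.699 on the log2 scale. The width of that interval rests largely on the spread borrowed across genes.

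Gm42418 (chr17:39846958-39848788, plus strand, mm10, a long noncoding RNA in the annotation) is listed by RefSeq as a synonym of Rn18s-rs5, a sequence related to 18S ribosomal RNA. It stood at 327, 277 and 293 CPM with DAMGO and at 744, 345 and 375 CPM with NC. All 3 DAMGO libraries lay below all 3 NC libraries, and the gap was widest in undifferentiated cells. The fitted difference was -0.64 ± 0.09 (SE, 3 pairs, edgeR adjusted p = 0.000724), a level of 0.643 times that of NC with a 95% interval from 0.565 to 0.732. By stage the differences were -1.18, -0.32 and -0.36. All 3 values lie outside the 95% interval of the fit, -0.824 to -0.45 on the log2 scale. Gm26917, another noncoding transcript that did not pass, had a difference of -0.33, with stage differences of -0.41, -0.19 and -0.35, and it was looked up after its values were seen. Lars, the cytosolic leucyl-tRNA synthetase, had a difference of 0.0065 ± 0.0660, and the 24 tested genes of the list of ATF4 targets, serine synthesis and tRNA synthetases had a median of -0.0192.

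The Lars2 transcript shares a stretch of 72 bases, at 98.6% identity, with Gm15564, a gene on chromosome 16 with 0 counts in these libraries. The first 30 bases without a mismatch are shown because their letters are those of a conserved stretch of 28S ribosomal RNA. In Gm15564 (chr16:35966752-35983230, minus strand, mm10) they start at base 179 of a transcript of 402 bases, and the same letters start at base 3278 of the 3894 bases of Lars2. No part is in capitals since the whole run is identical.
Gm15564: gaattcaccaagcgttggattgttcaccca
Both transcripts that passed the test thus carry sequence related to ribosomal RNA, Gm42418 by its RefSeq synonym and Lars2 over a short stretch. The expected counts do not give positions within a transcript, so the share of Lars2 reads from that stretch was not tested.

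The 2 genes that passed had the opposite direction at day 2, which the comparison leaves out, and naloxone did not share their direction at day 4. On the scale of the 12 libraries of the drug experiment, Lars2 at day 2 stood at 170 CPM with DAMGO and 82.9 CPM with NC, a difference of 1.04. Gm42418 at day 2 stood at 538 CPM with DAMGO and 427 CPM with NC, a difference of 0.33. The day 2 difference minus that of the other stages was 1.88 ± 0.46 for Lars2 and 1.02 ± 0.60 for Gm42418 (SE, edgeR over 12 libraries). These values are a description with no p, since both genes were chosen by the 3 stages that form one side of the contrast. The day 2 side has 1 library of each treatment, so the spread came from the other stages. Over all genes 750 of 12387 (6.05%) passed in that contrast, 730 of them downward. With naloxone Lars2 stood at 88.0, 121 and 147 CPM (undifferentiated, day 4 and day 8) and Gm42418 at 251, 534 and 525 CPM. The naloxone library was thus lower than DAMGO in undifferentiated cells and at or above NC at the later stages. When the naloxone libraries entered the fit, so that 9 libraries gave the spread, 0 of 12387 genes (0%) passed for DAMGO against NC, with 165 at an unadjusted p under 0.05. In that fit Lars2 had -0.84 ± 0.23 for DAMGO and -0.18 ± 0.23 for naloxone against the same NC libraries (edgeR's quasi-likelihood test, adjusted p = 1 and 0.95). DAMGO minus naloxone was -0.66 ± 0.23 (edgeR adjusted p = 0.973). For Gm42418 the same fit gave -0.68 ± 0.30 for DAMGO, -0.13 ± 0.30 for naloxone and -0.56 ± 0.30 between the drugs, and 0 genes (0%) passed between DAMGO and naloxone.

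**Figure D1:**
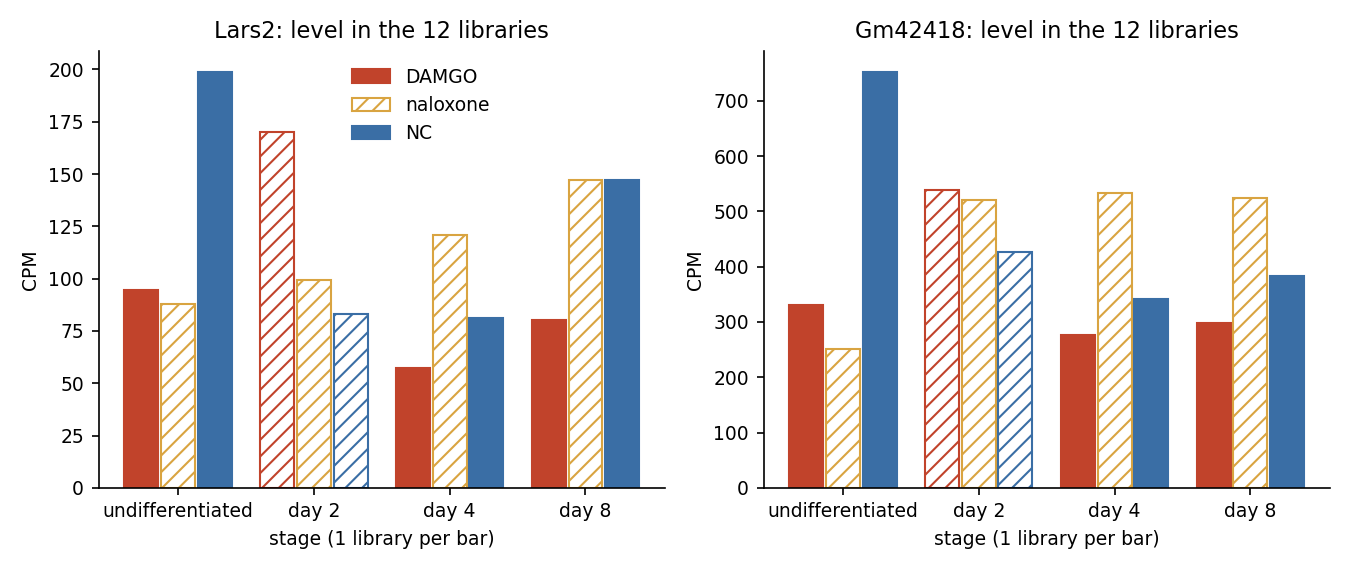
Levels of Lars2 (left) and Gm42418 (right) in CPM on the scale of the 12 libraries, with 1 bar per library, by stage, for DAMGO, naloxone and NC. Filled bars are the 6 libraries compared and hatched bars are the naloxone and day 2 libraries. DAMGO lies below NC at the 3 stages compared and above it at day 2, where Lars2 stood at 170 CPM with DAMGO and 82.9 CPM with NC.

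Among genes that did not pass, those with the smallest p and the same direction at all 3 stages differed by 0.18 to 0.78 in size on the log2 scale. A direction shared by 3 of 3 stages was found in 2811 of 12387 genes (22.7%), 1334 of them higher (10.8%) and 1477 lower (11.9%), so that agreement alone is common. Genes with predicted names were passed over in this choice, and a mean of at least 5 CPM was asked for. Each of the 19 genes beside Lars2 had an edgeR adjusted p from 0.964 to 1.

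On the higher side, Moap1, a modulator of apoptosis that binds Bax, stood at 14.1, 13.2 and 11.1 CPM with DAMGO and at 7.48, 8.35 and 8.29 CPM with NC. Its DAMGO libraries all lay above its NC libraries, with a fitted difference of 0.66 ± 0.18 (edgeR adjusted p = 0.964). Moap1 shares 90.8% of a transcript with Gm20604, and the sum of both differed by 0.225, 0.179 and -0.178 at the 3 stages. Slc2a3, a high-affinity glucose transporter, stood at 82.2, 17.9 and 30.9 CPM with DAMGO and at 60.4, 16.0 and 24.0 CPM with NC, a difference of 0.37 ± 0.10. Atp6v0a2, a subunit of the proton pump of acidic vesicles, had a smaller difference of 0.21 ± 0.06. Slc7a5, the transporter of large neutral amino acids, stood at 275, 230 and 145 CPM with DAMGO and at 231, 209 and 130 CPM with NC. Its difference was 0.18 ± 0.06, and its day 2 pair had a like value of 0.21. Inf2, a formin of actin filaments, stood at 17.4, 6.50 and 28.5 CPM with DAMGO and at 10.7, 4.84 and 22.1 CPM with NC, a difference of 0.48 ± 0.15. The remaining higher genes were Ifngr1, a subunit of the interferon gamma receptor (0.35 ± 0.11), Mapkbp1, a scaffold of JNK signalling (0.26 ± 0.08), Col12a1, a fibril-associated collagen (0.28 ± 0.09), Sptb, a beta spectrin (0.41 ± 0.13), and Tmem254c (0.78 ± 0.25). Tmem254c rests on its day 8 pair, 13.5 CPM with DAMGO and 3.50 CPM with NC, and it is identical over a whole transcript to Tmem254b. In the fit of 9 libraries Atp6v0a2 had 0.22 ± 0.07 for DAMGO and 0.21 ± 0.07 for naloxone against NC. Col12a1 had 0.28 ± 0.11 for DAMGO and 0.36 ± 0.10 for naloxone. Of these higher genes, naloxone had the opposite sign for Moap1 (-0.46 ± 0.28) and Tmem254c (-0.31 ± 0.42) alone.

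On the lower side, Tnfrsf22, a decoy receptor for the death ligand TRAIL, stood at 20.7, 22.1 and 11.4 CPM with DAMGO and at 29.5, 27.2 and 16.4 CPM with NC. The difference was -0.44 ± 0.12 and each stage lay between -0.30 and -0.52, with the treatments overlapping across stages. Id1, an inhibitor of helix-loop-helix factors and a BMP target, stood at 5.97, 5.57 and 86.3 CPM with DAMGO and at 6.06, 6.01 and 114 CPM with NC. Its difference of -0.34 ± 0.11 came from the day 8 pair, since the other pairs differed by -0.03 and -0.10. Ndc80, a kinetochore subunit, stood at 69.7, 1.16 and 0 CPM with DAMGO and at 91.6, 2.17 and 0.921 CPM with NC, so at day 4 and day 8 it was near the floor. Its difference was -0.44 ± 0.15. Pik3c2a, a class II phosphoinositide kinase, had -0.27 ± 0.09, and its day 2 pair differed by -2.23. The other lower genes were Dmrtb1, a DM domain factor (-0.35 ± 0.11), Zfp580, a zinc finger protein (-0.38 ± 0.12), Ndufb5, a subunit of respiratory complex I (-0.23 ± 0.07), Plpp7 (-0.50 ± 0.16) and Dalrd3 (-0.32 ± 0.10). One annotated transcript of Dalrd3 lies wholly within sequence shared with its neighbour Wdr6, and the summed counts of both differed by 0.091, 0.012 and -0.047. Wdr6 dominates these sums, with 1086 counts beside 168 of Dalrd3 in undifferentiated DAMGO cells, so they say little on Dalrd3. Not all of the 19 genes kept their direction at day 2, which played no part in their choice. It was opposite there for Moap1, Ifngr1, Col12a1, Dmrtb1, Zfp580, Ndufb5, Plpp7 and Dalrd3, and the same for the others. Among the lower genes, naloxone had the opposite sign to DAMGO for Plpp7 and Id1 alone in the fit of 9 libraries.

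**Figure D2:**
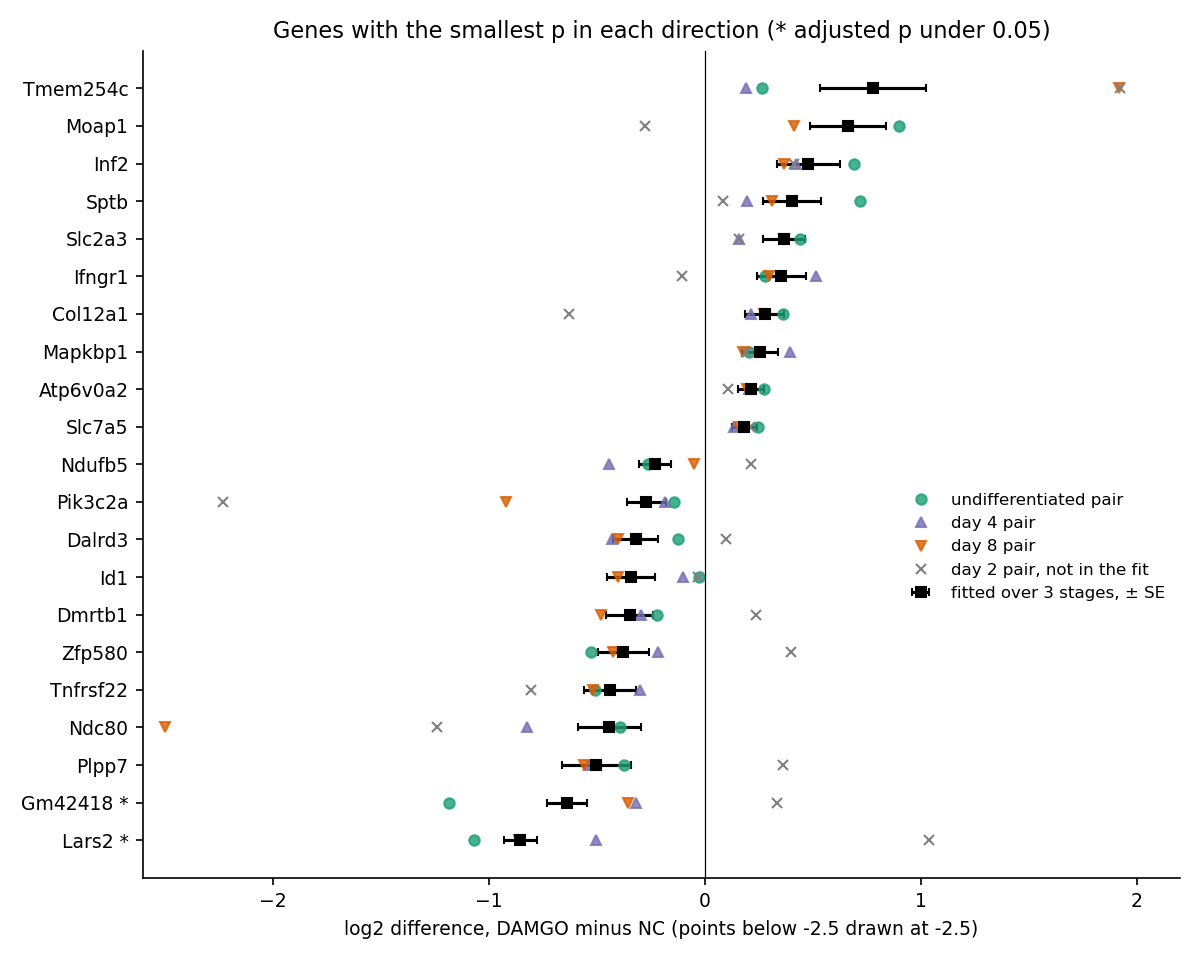
Log2 difference of DAMGO minus NC for Lars2, Gm42418 and the 19 genes that did not pass, with the fitted value and its SE (squares), the pair of each stage (coloured points) and the day 2 pair, which is not in the fit (crosses). Lars2 and Gm42418, marked with an asterisk, are the only genes past the threshold. Their crosses lie on the other side of 0, as do those of some of the 19 other genes.

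Of the opioid system itself, the target of DAMGO was not detectable at this depth. Oprm1, which encodes the mu receptor (chr10:6758506-7038198, mm10), had 0 counts in all 6 libraries, as did Oprd1 and Oprk1, which encode the delta and kappa receptors. A count of 0 over these libraries allows up to 0.0931 CPM. The enkephalin precursor gene Penk had 1 count and the nociceptin precursor gene Pnoc 2, all with DAMGO. Pomc, the precursor gene of beta-endorphin, had 5 counts with DAMGO and 6 with NC, and Pdyn, the dynorphin precursor gene, had 29 with DAMGO and 34 with NC. Some related genes were expressed. Oprl1, the nociceptin receptor gene, stood at 1.76, 24.8 and 29.4 CPM with DAMGO and at 2.02, 29.4 and 26.4 CPM with NC, a difference of -0.04 ± 0.14. Ogfr, the opioid growth factor receptor gene, stood at 87.8, 110 and 121 CPM with DAMGO and at 88.3, 121 and 122 CPM with NC, a difference of -0.05 ± 0.06. Neither of these differences passed.

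Genes that carry the signal of an opioid receptor stood close to NC. Of 33 genes of G protein subunits, adenylyl cyclases, receptor kinases, arrestins and RGS proteins, 27 were tested and 0 passed, with a median difference of 0.0125 against -0.00309 for all genes tested. At 3 of 3 stages 3 were higher (all genes 10.8%) and 0 lower (11.9%). Arrb1, one of the arrestins that desensitise the receptor, stood at 55.5, 144 and 147 CPM with DAMGO and at 50.3, 132 and 137 CPM with NC, a difference of 0.12 ± 0.06. Arrb2, the arrestin best known from mu receptor trafficking, stood at 29.9, 21.1 and 21.7 CPM with DAMGO and at 29.7, 25.2 and 27.1 CPM with NC, a difference of -0.18 ± 0.11. Adcy2, an adenylyl cyclase, had 0.17 ± 0.11 and Grk6, a receptor kinase, -0.10 ± 0.08.

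Immediate early genes, the first genes to respond to most receptors, had medians slightly above 0 at each stage, and none passed. Of 25 listed, 15 were tested, and their median difference was 0.0594, with stage medians of 0.0726, 0.136 and 0.0833. Higher at 3 of 3 stages were 7 of the 15, namely Fosl2, Jund, Ier2, Fos, Myc, Egr1 and Maff, and 0 were lower at all 3, beside 10.8% and 11.9% of all genes. Fosl2, a subunit of AP-1, stood at 17.6, 6.50 and 23.1 CPM with DAMGO and at 16.0, 4.84 and 16.2 CPM with NC, a difference of 0.35 ± 0.15 (unadjusted p = 0.0281, adjusted p = 1, edgeR). Fos stood at 22.8, 17.6 and 56.4 CPM with DAMGO and at 20.6, 14.7 and 51.6 CPM with NC, a difference of 0.16 ± 0.10. Egr1 was highest in undifferentiated cells, at 382 CPM with DAMGO and 368 CPM with NC, and its difference was 0.06 ± 0.08. With naloxone, on the scale of the 12 libraries, Fos stood at 26.5, 15 and 63 CPM, also above NC at each stage. Fosl2 stood at 16.2, 6.27 and 25.5 CPM with naloxone, close to NC in undifferentiated cells and above it later. Myc stood at 173.6 CPM with naloxone and 174.6 CPM with NC in undifferentiated cells, so not all followed. Both drugs are set against the same NC libraries, whose part in this lean was not tested. At day 2, which was not part of the comparison, the median of the list was 0.0516.

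The CREB target list shares Fos, Fosb and Nr4a1 with the immediate early list, and the lists were not tested against each other. Of 14 CREB targets tested, 2 were higher (all genes 10.8%) and 3 lower (11.9%) at 3 of 3 stages. Of these targets 0 passed, and the median was -0.0189. Among them, Pde4b, a phosphodiesterase that degrades cAMP, had -0.12 ± 0.07, the nuclear receptor gene Nr4a3 -0.23 ± 0.19, and Dusp1, a phosphatase of MAP kinases, -0.19 ± 0.21. The 15 ERK feedback genes had a median of 0.0453, with Dusp6 at -0.05 ± 0.09 and Ccnd1, the cyclin D1 gene, at -0.06 ± 0.07. The palindrome TGACGTCA, the full cAMP response element to which CREB binds, was searched in RefSeq promoter windows of GRCm38.p6, 250 bases before to 50 after a start site. It reads the same on both strands. It was found for 549 of 27025 genes (2.03%), for 364 of the 9566 tested genes matched by symbol (3.81%), for 1 of the 11 tested CREB targets matched (9.1%) and for 2 of the 11 tested immediate early genes matched (18.2%).

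The windows of these 3 tested genes are shown 5′ to 3′ on the gene's strand, with the element in capitals. They are the genes that hold it among the tested and matched genes of both lists, and unmatched genes were not searched. They are Dusp1 at chr17:26508423-26508722 (minus strand), Btg2, an antiproliferative gene, at chr1:134079106-134079405 (minus strand), and Maff, a small Maf factor, at chr15:79347270-79347569 (plus strand).
Dusp1: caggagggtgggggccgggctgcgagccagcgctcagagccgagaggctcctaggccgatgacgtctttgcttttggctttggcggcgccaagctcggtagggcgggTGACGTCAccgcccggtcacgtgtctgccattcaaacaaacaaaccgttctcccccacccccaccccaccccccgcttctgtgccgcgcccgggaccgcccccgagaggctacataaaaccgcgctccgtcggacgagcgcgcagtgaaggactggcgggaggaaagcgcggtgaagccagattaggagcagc
Btg2: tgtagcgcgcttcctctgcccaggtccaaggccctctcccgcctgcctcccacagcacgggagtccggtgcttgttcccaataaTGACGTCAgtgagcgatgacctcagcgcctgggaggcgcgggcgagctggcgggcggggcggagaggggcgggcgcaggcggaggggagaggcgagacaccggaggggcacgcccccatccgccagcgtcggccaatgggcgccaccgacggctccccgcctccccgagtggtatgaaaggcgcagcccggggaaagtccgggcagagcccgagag
Maff: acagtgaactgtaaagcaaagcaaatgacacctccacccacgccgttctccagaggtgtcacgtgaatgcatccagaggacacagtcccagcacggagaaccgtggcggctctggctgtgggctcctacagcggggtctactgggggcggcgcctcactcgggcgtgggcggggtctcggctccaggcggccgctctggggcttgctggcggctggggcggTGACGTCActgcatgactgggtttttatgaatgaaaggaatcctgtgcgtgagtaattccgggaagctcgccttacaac
The element starts 143 bases before the start site in Dusp1, 166 in Btg2 and 29 in Maff. Over the 3 stages Dusp1 averaged 7.64 CPM with DAMGO and 8.73 CPM with NC, Btg2 averaged 133 CPM with DAMGO and 136 CPM with NC, and Maff averaged 5.62 CPM with DAMGO and 4.95 CPM with NC. Their fitted differences were -0.19 ± 0.21, -0.02 ± 0.07 and 0.19 ± 0.27, and none of the 3 passed the test. A match is a description, not a site or a cause.

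Genes of mitosis leaned lower with DAMGO, without a member past the threshold. Of 23 tested genes of G2 and M phase, 11 were lower at 3 of 3 stages (all genes 11.9%) and 1 was higher (10.8%), and 0 passed. The median was -0.105, with stage medians of -0.089, -0.177 and -0.11. Top2a, the topoisomerase of dividing cells, stood at 1007, 23.7 and 5.64 CPM with DAMGO and at 1077, 27.9 and 6.45 CPM with NC, a difference of -0.12 ± 0.07. Aspm, a protein of the spindle pole, had -0.16 ± 0.08, the mitotic kinase gene Aurka -0.24 ± 0.13, the kinesin gene Kif11 -0.13 ± 0.08 and Mki67 -0.13 ± 0.09. The list summed to 6580, 127 and 51.4 CPM with DAMGO and to 6940, 142 and 57.9 CPM with NC, so at day 4 and day 8 most members had few counts. These genes are expressed together in dividing cells and are not independent of each other, and fewer dividing cells and less RNA per cell cannot be told apart in bulk RNA. The median of the list was -0.0572 after a trend on GC content and length was removed. Of 24 S phase genes 5 were lower and 1 higher at 3 of 3 stages, with a median of -0.0381 and a day 8 median of 0.0768. Fen1, a flap endonuclease of replication, had -0.23 ± 0.11, and Gins2, a part of the replicative helicase, 0.20 ± 0.12. Cdkn1a, the kinase inhibitor p21, stood at 242, 14.2 and 43.6 CPM with DAMGO and at 212, 12.4 and 40.5 CPM with NC, a difference of 0.17 ± 0.07 (edgeR adjusted p = 1).

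Lineage genes gave medians from -0.0907 to 0.0259, and none passed. Their counts at 3 of 3 stages stand beside 10.8% of all genes higher and 11.9% lower. The 20 astrocyte genes had a median of 0.0004, and 0 were higher and 2 lower at 3 of 3 stages. Gfap differed by 0.15 ± 0.06 (unadjusted p = 0.0223), higher at day 4 and day 8 and lower in undifferentiated cells, where it was near the floor. Glul, the glutamine synthetase gene, had -0.09 ± 0.05 and Aqp4, the water channel gene, -0.02 ± 0.07. The 11 oligodendrocyte precursor genes had a median of 0.0259, with Pdgfra, the receptor that marks precursors, at 0.08 ± 0.06 and Gpr17 at -0.07 ± 0.06. The 10 tested genes of differentiated oligodendrocytes had a median of -0.0907, with Mbp, a myelin protein gene, at 0.0009 ± 0.1040. Of 17 neuronal genes 6 were lower and 1 higher at 3 of 3 stages, with a median of -0.0307. Rbfox3, which encodes NeuN, stood at 1.23, 14.4 and 13.7 CPM with DAMGO and at 0.809, 10.5 and 10.7 CPM with NC (0.41 ± 0.20), while Tubb3, the neuronal tubulin gene, had -0.10 ± 0.07 and Dcx, of young neurons, 0.02 ± 0.07. Of 20 stem and progenitor genes 6 were higher and 0 lower at 3 of 3 stages, but the median was 0.0102. Nes had the smallest p of that list, with a difference of 0.14 ± 0.05 (unadjusted p = 0.011), and Sox2 had 0.06 ± 0.05.

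In the synapse, BMP and matrix lists no member passed the threshold, and their counts stand beside 10.8% of all genes higher and 11.9% lower at 3 of 3 stages. Of 22 synapse and ion channel genes 10 were lower and 2 higher at 3 of 3 stages, and the median was -0.0578. Grm5, a metabotropic glutamate receptor gene, stood at 276, 25.5 and 8.88 CPM with DAMGO and at 301, 32.9 and 12.7 CPM with NC, a difference of -0.20 ± 0.08 (unadjusted p = 0.0159). Gria2, an AMPA receptor subunit gene, had -0.13 ± 0.06. Of 13 BMP and Id genes 6 were lower and 0 higher, with a median of -0.042 and a day 8 median of -0.131. Of 10 tested matrix genes 4 were higher and 0 lower, with a median of 0.0709 and stage medians of 0.21, -0.01 and 0.0723. Fn1, which encodes fibronectin, stood at 21.3, 39.7 and 48.3 CPM with DAMGO and at 10.1, 38.2 and 42.6 CPM with NC, and Col5a1, a fibrillar collagen gene, at 18.3, 9.98 and 29.7 CPM with DAMGO and at 10.5, 8.85 and 27.1 CPM with NC. In both the gap lies in undifferentiated cells. Some markers of mesenchyme and pericytes were also higher with DAMGO there. Acta2 had 35 counts with DAMGO and 1 with NC, and Tagln had 24 with DAMGO and 6 with NC. Myl9 had 11 with DAMGO and 3 with NC. Others were not higher. At the same stage Col1a1 had 3 counts with DAMGO and 7 with NC, and Pdgfrb 0 with DAMGO and 2 with NC. Des had 1 with each, and Dcn and Lum had 0 with both. At day 4 Col1a1 had 3 counts with DAMGO and 17 with NC, and Col3a1 1 with DAMGO and 11 with NC. The 12 markers summed to 180 to 299 CPM with DAMGO and 174 to 322 CPM with NC, mostly from Cspg4, Pdgfrb and Myl9, which other cells also express, and their part in the result was not tested.

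Genes of glycolysis and hypoxia had their highest stage median in undifferentiated cells, 0.164 beside -0.0204 at day 4 and -0.0313 at day 8. Bnip3, a hypoxia-induced mitophagy receptor, stood at 121, 40.2 and 51.1 CPM with DAMGO and at 86.9, 38.7 and 49.0 CPM with NC, a difference of 0.25 ± 0.09 (unadjusted p = 0.00704, adjusted p = 1, edgeR). Vegfa, the growth factor of blood vessels, stood at 166, 20.4 and 7.86 CPM with DAMGO and at 126, 19.7 and 9.40 CPM with NC, a difference of 0.28 ± 0.10. The undifferentiated pair was also the one with a trend on GC content, with r across genes of 0.241, beside -0.0304 at day 4 and -0.0189 at day 8. With a trend on GC content and length removed, the list median fitted over the 3 stages was 0.0498, against 0.0494 before. The median of the undifferentiated pair was not computed that way, so the part of GC content in it was not tested. Pygl, a glycogen phosphorylase gene, had a difference of 1.05 ± 0.40 at levels of 0.878, 2.09 and 6.32 CPM with DAMGO and 0.202, 0.835 and 3.50 CPM with NC. The 25 ribosomal protein genes had a median of -0.0309, the 24 nuclear genes of oxidative phosphorylation -0.0068, the 22 cholesterol genes -0.0004 and the 17 p53 targets 0.0254. Tet1, a DNA demethylase gene, had -0.02 ± 0.09.

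**Figure D3:**
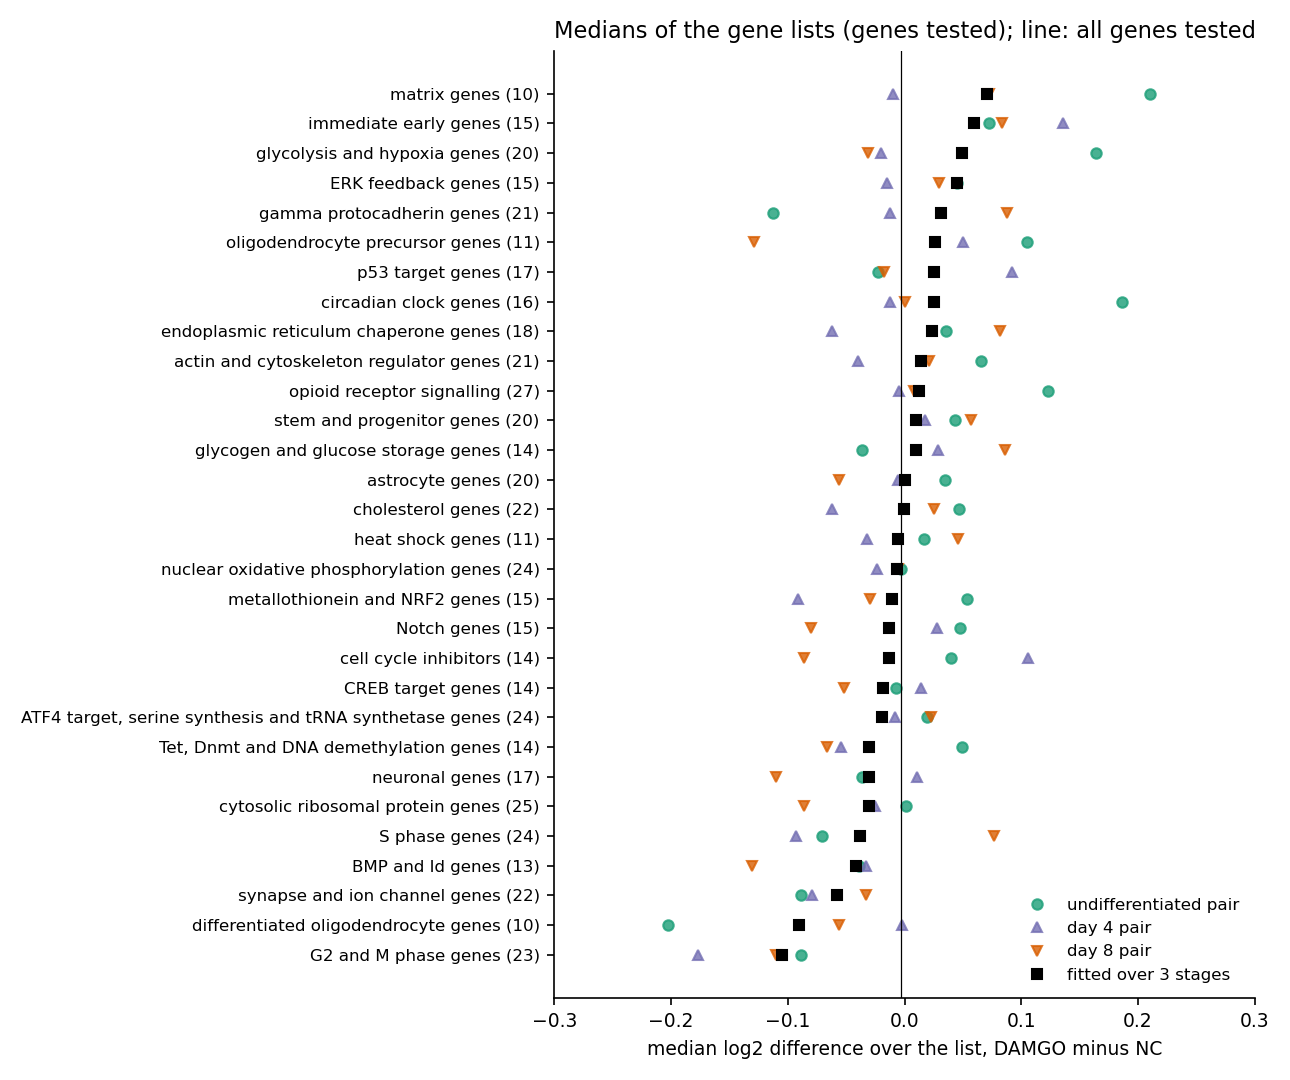
Median log2 difference of DAMGO minus NC over each gene list with at least 10 genes tested, fitted over 3 stages (squares) and in each stage pair (coloured points), with the number of genes tested in parentheses and the median of all genes as a line. G2 and M phase genes lie lowest, at -0.105, and matrix genes highest, at 0.0709, and stage medians of most lists fall on both sides of the line.

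Within single stages the libraries were compared without a test, as 1 library a side. At a mean of at least 5 CPM in the pair, 29 of 10777 genes (0.269%) were past 2-fold in undifferentiated cells, 21 of 10798 (0.194%) at day 4 and 26 of 10848 (0.24%) at day 8. Of these 18, 9 and 9 were higher with DAMGO and 11, 12 and 17 lower. At a mean of at least 20 CPM 2, 1 and 0 genes were left, and the 2 in undifferentiated cells were Lars2 and Gm42418. The day 2 pair, which is not in the comparison, had 879 of 10711 genes (8.21%) past 2-fold, 14 higher and 865 lower. At 20 CPM and above the SD of the log2 ratio over genes was 0.149, 0.139 and 0.153 at the 3 stages compared and 0.457 at day 2. The differences of the 3 pairs were not alike across genes either. Over 8315 genes Pearson's r was -0.0092 between undifferentiated and day 4, -0.0229 between undifferentiated and day 8 and -0.0178 between day 4 and day 8, values that describe these libraries, since genes are not replicates.

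**Figure D4:**
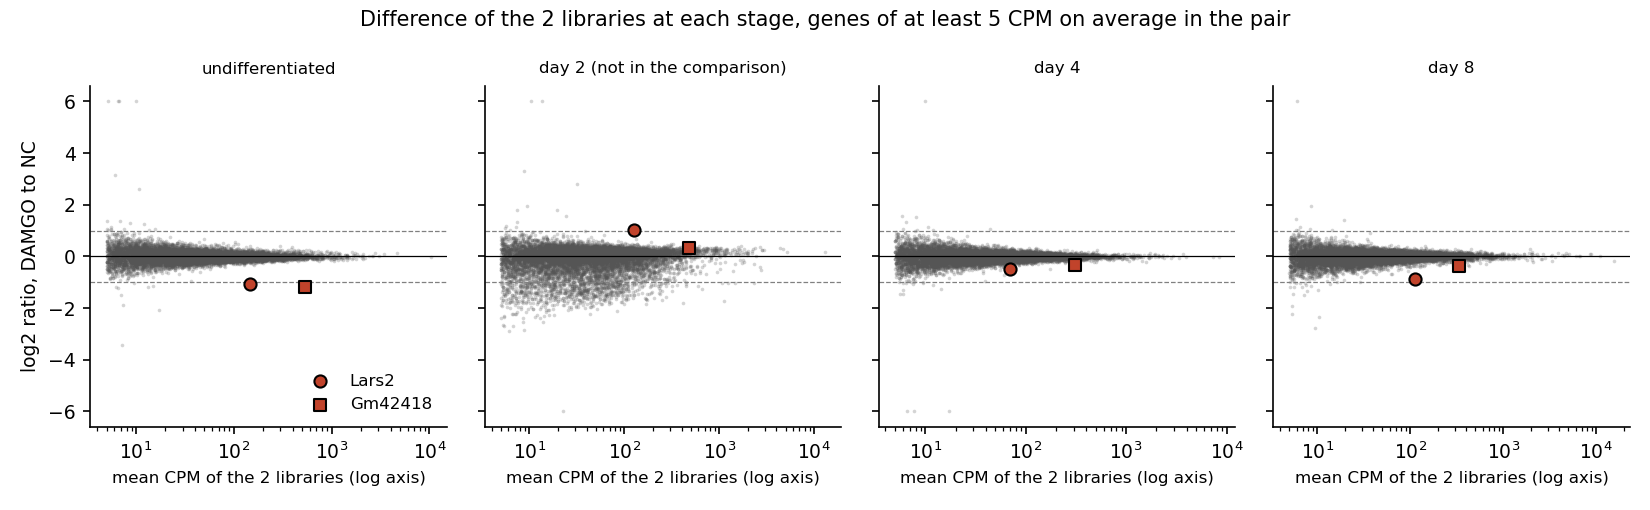
Log2 ratio of DAMGO to NC against the mean CPM of the pair (log axis) for genes of at least 5 CPM, at each stage, with Lars2 (circle) and Gm42418 (square) marked, 2-fold as dashed lines, and ratios beyond the axis, or with 0 counts on one side, drawn at its edge. The pairs at undifferentiated, day 4 and day 8 stay narrow, with an SD of 0.139 to 0.153 at 20 CPM and above, and the day 2 pair spreads downward, with an SD of 0.457.

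Some of the largest single-stage ratios belonged to genes that share much of a transcript with another gene. For Tom1, Lsm7, Btg3 and Nanp the other gene differed the opposite way where a ratio was large. How reads were divided between such genes was not tested. Tom1, an adaptor of endosomal sorting, had 120, 0 and 283 counts with DAMGO and 166, 209 and 139 with NC. It shares 83.7% of a transcript with Gm5884, which had 106, 258 and 501 counts with DAMGO and 15, 173 and 613 with NC. The sums of both genes differed by 0.117, -0.091 and -0.05 on the log2 scale of CPM, while Tom1 alone went in opposite directions at day 4 and day 8. Lsm7, a subunit of the spliceosomal and decay Lsm complexes, had 18, 28 and 71 counts with DAMGO and 57, 22 and 0 with NC. Together with Gm10146, which shares 66% of a transcript, it differed by 0.115, -0.347 and -0.015. Btg3, an antiproliferative gene, had 7 counts with DAMGO and 66 with NC in undifferentiated cells, where Gm7334 had 74 with DAMGO and 0 with NC, and the sums differed by 0.092. Nanp, a phosphatase of sialic acid synthesis, differed by -1.51 in undifferentiated cells, and by 0.038 when summed with Gm6741. Zfhx2os, annotated antisense to Zfhx2, shares 99.6% of a transcript with Thtpa and had 57 counts with DAMGO and 19 with NC there. Thtpa had 465 with DAMGO and 408 with NC, far more than Zfhx2os, so a sum of both says little on Zfhx2os. The sources used here do not say whether counting used strand. Of the 48 genes named by size or p, 12 share at least 50% of a transcript with another gene and 24 had no match. For the 10 genes named within a pair and summed with such a gene, which gave 11 ratios, the sum lay within the counting interval of the gene's own ratio in 4 and outside it in 7. Where the other gene had almost no counts, as for Pcdha4 and Adam1a, or far more counts, as for Zfhx2os, this was largely fixed in advance.

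**Figure D5:**
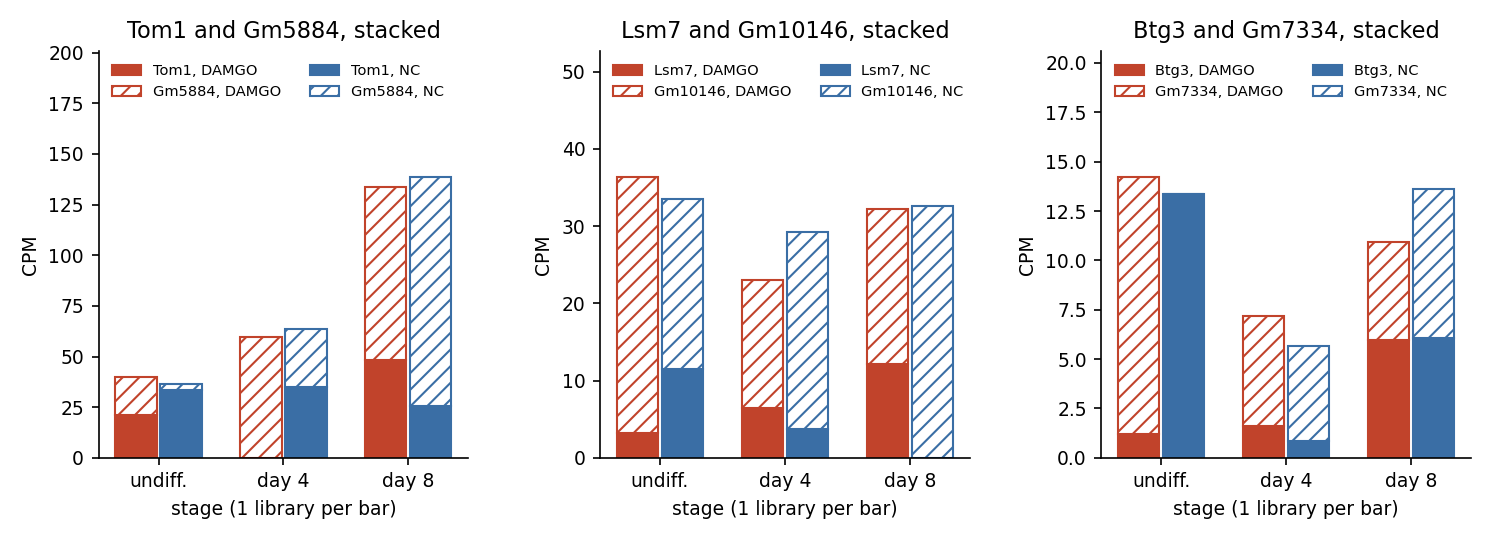
CPM of Tom1, Lsm7 and Btg3 (filled) stacked with that of the gene sharing most of their transcript (hatched), with 1 bar per library at undifferentiated, day 4 and day 8, DAMGO beside NC. The filled parts differ most for Tom1 at day 4, Lsm7 at day 8 and Btg3 in undifferentiated cells, where the stacked totals are close: Tom1 with Gm5884 totals 59.9 CPM with DAMGO and 63.8 CPM with NC at day 4.

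Other single-stage ratios kept their size when a copy was added, in part because the copy had few counts. The rest belonged to genes with less than 50% of a transcript shared, at low counts. Pcdha4, an alpha protocadherin gene, had 12, 52 and 39 counts with DAMGO and 4, 25 and 18 with NC. With its neighbour Pcdha1 added, it stood higher with DAMGO by 1.38, 1.53 and 0.854. That sum could hardly differ from Pcdha4 alone, since Pcdha1 had 0 counts at undifferentiated and day 4, and 0 with DAMGO and 2 with NC at day 8. The fitted difference of Pcdha4 was 1.31 ± 0.28 (edgeR adjusted p = 0.187), not past the threshold. Its variable exon is spliced to exons shared by the whole cluster, so its counts depend on how shared reads were divided. Rab33a, a small GTPase gene, had 42 counts with DAMGO and 14 with NC in undifferentiated cells, a ratio of 2.61 (95% counting interval 1.40 to 5.17), and was slightly lower with DAMGO at the other stages. Fn1 had 121 counts with DAMGO and 50 with NC there, a ratio of 2.10 (1.5 to 2.98). At day 4 Rcan2, a regulator of calcineurin, had a ratio of 0.369 (0.184 to 0.690) and Cbr3, a carbonyl reductase gene, 0.459 (0.297 to 0.690). Sco2, a chaperone of cytochrome oxidase, had a ratio of 2.53 at day 4 (1.47 to 4.46). Unlike these genes, Sco2 shares 100% of a transcript with another gene, Tymp, and the sum of both differed by 1.261 there. In undifferentiated cells Sco2 was lower with DAMGO, at 5.97 CPM beside 10.5 CPM with NC. At day 8 Cdca7, a gene of dividing cells, had 28 counts with DAMGO and 56 with NC, a ratio of 0.463 (0.283 to 0.742), G2e3 a ratio of 0.436 (0.257 to 0.722) and Tpcn2, a lysosomal channel gene, 2.11 (1.34 to 3.39). These genes were picked as extremes of about as many ratios as genes compared, and the intervals do not allow for that choice.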

How the data were processed

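RNA-seq libraries of mouse NSC were analysed from gene tables that the authors deposited with expected counts and TPM per gene. Bowtie, RSEM and the mm10 build are named per the submitters' processing notes, while versions and strandedness are not given there. RSEM divides reads between similar transcripts, so 10.4 to 12.2% of genes per library had counts that were not whole. Expected counts were rounded and tested with edgeR 4.0.16 in R 4.3.3 (quasi-likelihood test, TMM scaling, filterByExpr by treatment, stage as a block, Benjamini-Hochberg adjustment over 12387 genes, threshold 0.05). The deposited TPM values served only as alternatives, tested with limma 3.58.1 after adding 1 or 0.1. DESeq2 1.42.0 and a GC and length trend from mgcv 1.9.3 were other alternatives. Shared transcript sequence was found with BLASTN 2.17.0 at 98% identity over 50 bases or more, and sums with a copy were chosen after seeing the data. Gene positions come from GENCODE (mm10) and promoters from RefSeq (GRCm38.p6), and figures were drawn with matplotlib 3.10.9 in Python 3.11.15. Named were the genes past the threshold and, where fewer than 5 passed on 1 side, the 10 genes of lowest p that averaged 5 CPM or more and had a like sign at each stage, plus the 5 largest ratios each way per pair. Predicted names were counted and not named, with the exceptions stated. From the lists, genes were shown by p or by role. The comparison, the members and all lists were chosen with earlier results of these data known.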

Additional observations from a re-analysis of the deposited data

Results flagged for a closer look

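At day 2, which the comparison leaves out, Lars2 differed by 1.04 on the log2 scale (DAMGO minus NC), opposite to its 3 other stages. The day 2 difference minus that of the other stages was 1.88 ± 0.46 (SE, edgeR over 12 libraries). Gm42418 differed by 0.33 at day 2, also opposite to its 3 other stages, and the same contrast gave 1.02 ± 0.60. Both genes were chosen by their values at those 3 stages and day 2 has 1 library of each treatment, so the reversals have no independent test. In the day 2 pair 879 genes of at least 5 CPM were past 2-fold, 14 higher and 865 lower with DAMGO, beside 21 to 29 in the pairs of the other stages. Across genes the day 2 log2 ratio had a correlation of 0.58 with GC content, beside 0.241, -0.0304 and -0.0189 at undifferentiated, day 4 and day 8. The part of GC content in the day 2 ratios was not tested.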

How the results depend on the processing

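The count of genes past the threshold was 2, and it depended on the processing. It was 3 with DESeq2 size factors in edgeR and 2 with limma-voom. It was 20 with no filter on low counts (7 higher, 13 lower), 9 with a GC and length trend removed (4 higher, 5 lower), and 6 to 20 when 1 stage pair was left out. It was 1 with DESeq2, 1 with limma on log2(TPM + 1), 1 on log2(TPM + 0.1) and 1 in a test against 1.2-fold. The gene called on TPM has a predicted name and is neither Lars2 nor Gm42418. The count was 0 when 9 libraries gave the spread (165 genes at an unadjusted p under 0.05), 0 with 12 libraries (166) and 0 with the day 2 pair added (264). Lars2 passed in 9 of 14 alternatives and Gm42418 in 7. With day 2 added their differences were -0.36 ± 0.33 and -0.38 ± 0.21 (edgeR adjusted p = 0.962 for both), and in the other alternatives they ranged from -0.97 to -0.72 for Lars2 and from -0.78 to -0.34 for Gm42418. The causes of these changes were not tested, beyond the smaller or larger sets of libraries and genes that the alternatives use.

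The counts past 2-fold at undifferentiated, day 4 and day 8 were 139, 160 and 107 on TPM, and 2, 1 and 0 at a mean of at least 20 CPM. They changed little with DESeq2 size factors or the GC and length trend removed. All 21 named genes kept their direction in the 14 alternatives. All of them had a like sign at each stage compared, and most were chosen for it. Alternatives that refit the same pairs could thus hardly reverse a direction, and their agreement says little on robustness. The fit with day 2 added brought in a further pair, and there too all 21 kept their direction. That fit still held the pairs used for the choice, so it also says little on robustness. In the day 2 pair itself the direction was opposite for Lars2, Gm42418, Moap1, Ifngr1, Col12a1, Dmrtb1, Zfp580, Ndufb5, Plpp7 and Dalrd3. It was the same there for the other named genes. Tmem254c passed without the undifferentiated pair (1.12, edgeR adjusted p = 0.0386). List medians ranged from -0.171 to -0.0572 for G2 and M phase, 0.0432 to 0.0854 for immediate early, -0.255 to -0.0293 for synapse and ion channel, 0.0399 to 0.0934 for matrix, -0.119 to -0.0387 for BMP and Id, and -0.0214 to 0.0819 for glycolysis and hypoxia genes. The fits pair DAMGO and NC by stage, and the labels give no replicate numbers for another block. With 1 library per condition, culture, library and stage cannot be told apart, and genes under about 5 CPM carry wide counting error.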
